A study of Mus musculus with 6 samples.

Results

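Gene-derived reads of 20 to 24 nt are short RNA fragments whose sequence lies, in the sense direction, in the transcripts of exactly 1 protein-coding gene. Members were sequences of 20 to 24 nt that matched no small RNA biotype of GENCODE M21 exactly (microRNA, snRNA, snoRNA, rRNA, mitochondrial tRNA and the like) and matched 1 protein-coding gene over their whole length. There were 669424 members among 1328694 distinct sequences of that length and 11729247 distinct sequences in all, and they came from 14533 genes. By length, 131992 members had 20 nt, 125469 had 21 nt, 120067 had 22 nt, 123209 had 23 nt and 168687 had 24 nt.

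The libraries came from mouse spermatogonial stem cells (SSC) in culture, the germline stem cells of the testis. The donor of the SSC was a male F1 (C57BL/6 × DBA2) aged 15 days with actin-EGFP transgenes, and the cells grew on mouse embryonic fibroblast feeder cells, while the strain field reads C57BL/6. All libraries share this background. There were 6 groups with 1 library each: untreated wild-type SSC, wild-type SSC RNA treated with NaIO4 (sodium periodate), untreated mhen1-/- SSC, mhen1-/- SSC RNA treated with NaIO4, untreated mili-/- SSC, and RNA immunoprecipitated from wild-type SSC with a MILI antibody. The knockouts were made by transfection of spCas9 and sgRNAs and are colonies picked singly, so each knockout stands for 1 colony. The total RNA libraries contained spike-ins and the immunoprecipitate was not described as containing them. With 1 library a group, no difference given here has a replicate check, and every interval covers counting error only, since reads amplified without molecular identifiers are not independent molecules.

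MILI (Piwil2) is a PIWI protein of germ cells that binds piRNAs, small RNAs longer than microRNAs that often begin with uridine (read as T). HEN1 (Henmt1) adds a methyl group to the 2′ hydroxyl of the last nucleotide of a piRNA, after the 3′ end has been trimmed. Periodate oxidises the 3′ end of RNAs that lack this methyl group, and such RNAs are then poorly ligated into a library, so a sequence whose share holds or rises after NaIO4 is called resistant. MicroRNAs of mammals carry no such methyl group and serve as the sensitive reference, and fragments of mitochondrial mRNAs serve as another. The questions asked of the short reads were whether their 5′ ends are those of longer reads bound by MILI, whether they resist NaIO4, and whether they are in the MILI immunoprecipitate.

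The most abundant members show the main patterns. Below, capitals mark the member, and lower case marks the bases by which the most abundant immunoprecipitated 25 to 31 nt read with the same first 20 nt goes on. All of these longer reads are in the transcript. For Tmem38b, which had no such longer read, only the member is given.
Zfp346 21-mer: TGGAAGACCTCTGTGTTTAAAtggattc
Usp22 23-mer: TAGGCTGTCCACTTCTGAGCAACtggaatc
Sec61a1 20-mer: TGTCAACACTGGCCGAGGGAtggaatt
Ctdsp2 20-mer: TAAGAGTCTGTTTATATTTTtggaata
Ddx6 21-mer: TCTAATGTAAAAACTCATCTTtggaat
Rpsa 20-mer: TGAGAAGGCTGTGACCAAGGaggaattcc
Zic5 23-mer: GGGATGTAGCTCAGTGGTAGAGCac
Tmem38b 20-mer: ATACCGGGTGCTGTAGGCTT

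Coordinates of these members are on GRCm38, from GENCODE M21. The Zfp346 21-mer (a zinc-finger protein that binds double-stranded RNA) lies in the 3′ UTR in exon 7 of 7 (chr13:55134183-55134203, plus strand). The Usp22 23-mer lies in the 3′ UTR of a ubiquitin protease gene, in exon 13 of 13 (chr11:61153387-61153409, minus strand). The Sec61a1 20-mer spans the junction of exons 7 and 8 in the coding sequence of a protein translocation channel (chr6:88508720-88512118, minus strand, with the intron between). The Ctdsp2 20-mer (chr10:126999902-126999921, plus strand) and the Ddx6 21-mer (chr9:44640130-44640150, plus strand) are in 3′ UTRs, in the last exon of genes for a phosphatase and an RNA helicase. The Rpsa 20-mer is in the coding sequence of a small ribosomal subunit protein, in exon 6 of 7 (chr9:120131026-120131045, plus strand), and also matches a lncRNA or pseudogene. The Zic5 23-mer (chr14:122459024-122459046, minus strand), which also matches a lncRNA or pseudogene, and the Tmem38b 20-mer (chr4:53860752-53860771, plus strand) are in 3′ UTRs. The source of these last 2 is uncertain. The Zic5 23-mer resembles the start of a nuclear tRNA, a class that GENCODE M21 does not hold, so that a tRNA fragment which also matches an mRNA is counted as a member. The Tmem38b 20-mer resembles the 3′ end of 5S ribosomal RNA, and no small RNA entry holds it over its whole length, so the exact matching kept it.

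The Zfp346 21-mer had 88.4 rpm (reads per 1000000 of 18 to 35 nt) in untreated wild type, 136 after NaIO4, 5.21 in the Hen1 knockout, 45.3 in the Hen1 knockout after NaIO4, 0 without MILI and 38.2 in the MILI immunoprecipitate. It was thus the member with the most reads in wild type, was absent from the Mili knockout, where 0 reads allow up to 0.624 rpm, and was higher after NaIO4 in both genotypes. The Usp22 23-mer had 49.4 rpm in untreated wild type, 85.9 after NaIO4, 3.59 in the Hen1 knockout, 64.5 in the Hen1 knockout after NaIO4, 0 without MILI and 76.6 in the MILI immunoprecipitate. The Ctdsp2 20-mer had 25.3 rpm in untreated wild type, 52.2 after NaIO4, 5.98 in the Hen1 knockout, 123 in the Hen1 knockout after NaIO4, 0 without MILI and 36.01 in the MILI immunoprecipitate. Both were also absent from the Mili knockout and higher after NaIO4 in both genotypes, but in the immunoprecipitate they were above their wild-type level and the Zfp346 21-mer below it. The Ctdsp2 20-mer was 20.5 times higher after NaIO4 in the Hen1 knockout (95% interval 15.9 to 26.6). The Ddx6 21-mer went from 1.03 to 59.1 rpm after NaIO4 in the Hen1 knockout and the Sec61a1 20-mer from 1.45 to 12.7 rpm. The Zic5 23-mer had 50.1 rpm in untreated wild type, 1.07 after NaIO4, 11.5 in the Hen1 knockout, 6.53 in the Hen1 knockout after NaIO4, 48.04 without MILI and 0.198 in the MILI immunoprecipitate. The Tmem38b 20-mer had 15.2 rpm in untreated wild type, 1.95 after NaIO4, 3.93 in the Hen1 knockout, 4.22 in the Hen1 knockout after NaIO4, 22.3 without MILI and 0.792 in the MILI immunoprecipitate. The Zic5 and Tmem38b members were the opposite case, close to or above their wild-type level in the Mili knockout, low in the immunoprecipitate and low after NaIO4 in wild type.

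Most of the members printed above that rose after NaIO4 in the Hen1 knockout are followed by the same letters, which the choice of members did not use, although those printed were picked to show the patterns. In the transcript the Zfp346, Usp22, Sec61a1, Ctdsp2 and Ddx6 members are followed directly by the letters TGGA, as the lower-case letters show, whereas the Zic5 and Tmem38b members are followed by other letters. The Rpsa 20-mer was also higher there, with 0.940 rpm in the Hen1 knockout and 4.61 after NaIO4, from 11 and 12 reads. It is followed by AGGAAT, which differs only in its first letter from the TGGAAT after the Usp22, Sec61a1, Ctdsp2 and Ddx6 members. Members with such near matches count as not before TGG. Of the 131 members that were at least 2-fold higher after NaIO4 in the Hen1 knockout, 48 were not followed by TGG. Some members before TGGA also outnumbered the longer reads that share their start: in wild type the Zfp346 21-mer had 647 reads against 21 of 25 to 31 nt with its first 20 nt, and the Ddx6 21-mer 173 against 0. TGGA are also the first letters of the 3′ adapter of Illumina's TruSeq small RNA kits. The labels name an Illumina protocol but not the adapter. Whether such a 3′ end is the end of an RNA molecule was not tested, so the main results below are also given for members followed by TGG in their transcript and for the other members. This division was made after seeing the data.

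The libraries held between 2604390 and 25240941 reads of 18 to 35 nt, the total used for every share. The Hen1 knockout library treated with NaIO4 was the shallowest and stood apart: 57.3% of its reads had 20 to 24 nt against 20.99% in NaIO4-treated wild type, most of them with no match to a protein-coding gene (44.5% of the library). MicroRNAs of 20 to 24 nt fell from 18.6% to 1.18% of wild-type reads after NaIO4 and from 7.01% to 2.18% in the Hen1 knockout. Shares are relative, so the loss of one kind of RNA raises the share of all others. Reads from the targeted genes do not test the deletions: Piwil2 had 236 reads of 25 to 31 nt in wild type and 0 in the Mili knockout, but such reads fell for nearly all genes there, and Henmt1 had 17 in wild type and 78 without HEN1.

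Gene-derived reads of 20 to 24 nt were a small share of every library. They made up 1.52% (1.51 to 1.53) of untreated wild-type reads (exact 95% binomial interval in parentheses), 1.92% (1.92 to 1.93) after NaIO4, 3.07% (3.06 to 3.08) in the Hen1 knockout, 2.75% (2.73 to 2.77) in the Hen1 knockout after NaIO4, 0.523% (0.516 to 0.529) in the Mili knockout and 3.75% (3.74 to 3.75) in the MILI immunoprecipitate. The share was lowest without MILI and highest in the immunoprecipitate. In wild type the longer gene-derived reads, of 25 to 31 nt and defined by the same matching, were 19.9% of reads. The short reads were spread over many sequences: 32.8, 28.7, 42.03, 46.01, 30.1 and 61.9% of the distinct members in the 6 libraries, in the order above, were seen in 1 read, and the 10 most abundant held between 0.646% and 3.88% of member reads. Few member reads, 0.595% to 1.94%, were within 1 mismatch of an annotated small RNA, while 10.4% to 23.9% also matched a lncRNA or pseudogene.

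The letters after the 3′ end set the short reads apart from the longer ones. In their transcript, 26.4, 29.4, 6.10, 42.8, 12.5 and 11.99% of member reads ended just before TGG in wild type, wild type with NaIO4, the Hen1 knockout, the Hen1 knockout with NaIO4, the Mili knockout and, last, the immunoprecipitate. Of reads of 25 to 31 nt, 3.18, 3.07, 2.72, 6.52, 11.1 and 2.94% did. TGGA was the most common run of 4 letters after the 3′ end of members in each of the 6 libraries, with 21.4% of wild-type member reads that have 4 further letters, against 2.78% for TGGG, the next. The share before TGG fell with length, from 38.5% at 20 nt to 12.9% at 24 nt and 6.09% at 25 nt in wild type, and from 59.3% to 17.3% in the Hen1 knockout with NaIO4. In both it was far lower at 24 nt than at 20 nt. In the Mili knockout it did not fall, with 12.03% at 20 nt and 12.8% at 24 nt, and in the immunoprecipitate it was 13.6%, 14.02% and 7.89% at 20, 21 and 24 nt. The share before TGG thus differed between libraries that are compared below.

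Many member reads began where a longer read bound by MILI began, except without MILI. A 5′ end was called shared when the first 20 nt equalled those of a MILI-bound longer sequence. Such a sequence had 25 to 31 nt, no match to a small RNA and at least 10 reads in the immunoprecipitate. It did not need to match a gene. There were 212179 of them, with 135178 distinct first 20 nt. Shared ends made up 26.4% of member reads in wild type, 30.3% after NaIO4, 33.8% in the Hen1 knockout, 29.6% after NaIO4 there, 3.66% in the Mili knockout and 34.9% in the MILI immunoprecipitate, where the same library gave both reads. This level depends on the minimum of reads: in wild type it was 62.3% when 1 immunoprecipitated read was enough and 11.6% when 50 were required. As a background, the same members were compared with MILI-bound 5′ ends at every other offset within 15 nt. The median over those offsets was 4.27% in wild type, 2.99% in the Mili knockout and 4.92% in the MILI immunoprecipitate. The share at the exact position was 6.19 times this median in wild type and 1.23 times in the Mili knockout, where it lay below the highest other offset (4.34%).

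In untreated wild type, sharing differed little by the letters after the 3′ end. In the untreated Hen1 knockout, both NaIO4 libraries and the immunoprecipitate it differed more. Of member reads not before TGG, 26.5% in wild type, 34.2% in the Hen1 knockout and 3.82% in the Mili knockout had a shared 5′ end, and of those before TGG 26.2%, 26.9% and 2.60%. After NaIO4 it was 32.3% against 25.5% with HEN1 and 34.9% against 22.4% without it. In the immunoprecipitate it was 35.6% against 29.9%. By length, 25.6% of 20 nt reads and 28.2% of 24 nt reads in wild type had one. Shared 3′ ends, by the last 20 nt, were less distinct, with 15.3% of wild-type member reads at the exact position and 14.3% at the offset of 7 nt. A 5′ overlap of 10 nt with an antisense MILI-bound read, the arrangement left by ping-pong cleavage, held for 1.90% of member reads in wild type (median of other overlaps 0.402%) and 0.105% in the Mili knockout (median 0.117%). This overlap touched few short reads in any library.

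A first T went with the shared 5′ ends, except without MILI, and was common without them. By the rule, a shared member has the first base of a MILI-bound longer read. The T share of shared members is thus a description only. Of member reads with a shared 5′ end, 93.4% began with T in wild type, without HEN1 95.5% did, and in the Mili knockout 36.05% of the few that were left did. Of those without, 62.2% did in wild type, 76.4% after NaIO4, 73.01% in the Hen1 knockout, 78.5% in the immunoprecipitate and 23.2% in the Mili knockout. Members of mitochondrial genes began with T in 21.5% of wild-type reads. The first base of unshared members therefore lay nearer to that of the shared members in libraries with MILI and near the mitochondrial level without it.

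At the MILI-bound 5′ ends, short reads were a minor part of all reads in wild type and a larger part without HEN1. Over 103205 such 5′ ends in 1 protein-coding gene, members were 3.99% of reads of 20 to 31 nt in wild type, 3.23% after NaIO4, 8.50% in the Hen1 knockout, 20.7% after NaIO4 there and 5.33% in the immunoprecipitate. With all reads before TGG left out, short and longer ones alike, these were 3.07%, 2.53%, 8.32%, 15.4% and 4.95%. The mean length at these ends was 27.9 nt in wild type and 26.8 nt without HEN1, and the most common length was 28 nt and 27 nt. In the Mili knockout the ends held 4225 reads, of which 921 were members.

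After NaIO4 in wild type, the short reads kept their share while microRNAs and mitochondrial fragments lost most of theirs. The share with NaIO4 divided by the share without was 1.26 (95% interval 1.26 to 1.27) for members, with the interval from both read counts on the log scale. Among members it was 1.35 for nuclear genes and 0.0902 (95% interval 0.0842 to 0.0965) for mitochondrial genes. For microRNAs of the same lengths it was 0.0636, for other small RNAs 1.07 and for gene-derived reads of 25 to 31 nt 1.84. The short reads of nuclear genes were thus far from the sensitive references and below the longer reads. By length, from 20 to 24 nt, the ratios were 1.23, 1.23, 1.21, 1.22 and 1.39, beside 1.05 at 19 nt and 1.71 at 25 nt. The ratio was flat from 20 to 23 nt and rose towards the longer reads. It was 1.21 for members not before TGG and 1.41 for those before it. Taken as shares of distinct sequences instead of reads, which move with depth, the ratio of all members was 0.951.

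Mitochondrial members followed by TGG were the exception among mitochondrial reads. They were few, with 115, 100, 93, 87, 44 and 11 reads in the 6 libraries, and had a NaIO4 ratio in wild type of 0.619 (95% interval 0.474 to 0.810) against 0.0817 for the other mitochondrial members. In the Hen1 knockout the ratios were 4.20 (95% interval 3.14 to 5.63) and 0.433. A 3′ end before TGG thus went with a higher NaIO4 ratio also in transcripts made in mitochondria.

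In the Hen1 knockout, the short reads as a whole changed little with NaIO4, and that value joined opposite ones. The ratio was 0.895 (95% interval 0.888 to 0.902) for all members, 0.508 for mitochondrial members, 0.310 for microRNAs, 6.82 for other small RNAs and 0.289 for gene-derived reads of 25 to 31 nt. Members before TGG had a ratio of 6.28 (95% interval 6.17 to 6.39) and the others 0.545 (95% interval 0.540 to 0.551). So short reads not before TGG fell in share, less than the longer reads did, and short reads before TGG rose. By length, from 20 to 24 nt, the ratio of all members went down as 3.58, 2.40, 1.18, 0.709 and 0.379. It was 11.3, 9.74, 6.72, 4.64 and 1.99 for members before TGG and 1.80, 1.27, 0.690, 0.477 and 0.324 for the others. Within both sets the shortest reads had the highest ratios, and the longer reads of 25 nt not before TGG had 0.283. Over distinct sequences the ratio of all members was 1.42, and per microRNA read, which periodate also lowers, 2.31.

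A trend with length in this library was also seen outside the members. MicroRNAs had a NaIO4 ratio in the Hen1 knockout of 3.35 at 18 nt, 0.922 at 20 nt, 0.343 at 21 nt and 0.277 at 22 nt. Mitochondrial members had 0.501, 0.509, 0.524, 0.497 and 0.508 from 20 to 24 nt, with no such trend. The part of these differences between lengths in the members' result was not tested. Against wild type, the NaIO4 ratio of members in the Hen1 knockout was 0.708 times as large for all, 0.450 times for those not before TGG and 4.45 times for those before TGG, beside 0.157 for longer reads and 4.88 for microRNAs. The direction of this difference therefore depended on the letters after the 3′ end.

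Members with a shared 5′ end had a higher NaIO4 ratio in wild type than members without. Their NaIO4 ratio in wild type was 1.45 (95% interval 1.43 to 1.47) against 1.20 (95% interval 1.19 to 1.21), and with members before TGG left out 1.48 against 1.12. Of mitochondrial member reads in untreated wild type, 0.494% had a shared 5′ end. The members without one thus held nearly all of these sensitive reads, and their part in the difference was not tested. In the Hen1 knockout the ratios were 0.783 and 0.952, and with members before TGG left out 0.556 and 0.539. How shared and unshared members compare in the Hen1 knockout depends on how a shared 5′ end is defined: with longer reads of the same library in place of the immunoprecipitate, the ratios of all members there were 0.363 with and 1.73 without one. Members before TGG rose there whether shared (5.23) or not (6.66).

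The short reads were in the MILI immunoprecipitate at a higher share than in the untreated total RNA. The ratio was 2.46 (95% interval 2.45 to 2.48) for members, 2.63 for those of nuclear genes and 0.0460 for those of mitochondrial genes. MicroRNAs had 0.0346 and gene-derived reads of 25 to 31 nt 2.15, so the ratio of nuclear members was on the side of the longer reads. From 20 to 24 nt it went down as 3.52, 2.77, 2.37, 2.02 and 1.90. It was 2.95 for members not before TGG and 1.12 for those before it, and members not before TGG had 4.94, 3.77, 2.83, 2.29 and 2.01 by length. Members with a shared 5′ end had 3.26 and those without 2.18, a description only, since the immunoprecipitate also set which 5′ ends count as bound. No immunoprecipitate with a control antibody is analysed here, and the wild-type total RNA is the only reference for these ratios.

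Without MILI the short reads fell, less than the longer reads. The Mili knockout share was 0.344 (95% interval 0.339 to 0.348) times that of wild type for members, 0.301 for nuclear genes and 0.955 for mitochondrial genes, beside 0.0386 for 25 to 31 nt and 1.78 for microRNAs. From 20 to 24 nt the ratios were 0.368, 0.370, 0.375, 0.373 and 0.259, then 0.106 at 25 nt and 0.0245 at 27 nt, so lengths 20 to 23 lay level and the fall deepened from 24 nt on. Members with a shared 5′ end had 0.0477 (95% interval 0.0447 to 0.0509) and those without 0.450 (95% interval 0.444 to 0.456). Those without include nearly all mitochondrial member reads, which kept most of their share. Members before TGG fell further (0.163) than the others (0.408), and among those not before TGG the ratios were 0.0588 with and 0.535 without a shared 5′ end. Of the member reads that were left in the Mili knockout, 18.2% came from mitochondrial genes, against 6.54% in wild type. Over distinct sequences the Mili knockout ratio of members was 1.00. How much less RNA of this kind each cell held and how many cells held it cannot be told apart in bulk RNA.

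The Hen1 knockout held more short reads than wild type, mostly of the longer lengths. Untreated, the share was 2.02 (95% interval 2.01 to 2.03) times that of wild type, beside 1.26 for 25 to 31 nt and 0.378 for microRNAs. From 20 to 24 nt the ratios were 0.604, 0.831, 1.49, 2.37 and 4.08. Reads of 20 and 21 nt were thus lower than in wild type and reads of 22 to 24 nt higher. Members before TGG had 0.467, the others 2.58, and those with a shared 5′ end that were not before TGG 3.33.

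Most short reads of nuclear genes lay in 3′ UTRs, as the longer reads did. In wild type 61.8% of nuclear member reads were in a 3′ UTR, 28.4% in coding sequence, 5.10% in a 5′ UTR and 4.73% in transcripts with no coding part, beside 62.7% and 31.5% in 3′ UTRs and coding sequence for 25 to 31 nt. In the Mili knockout 36.7% were in a 3′ UTR and 40.97% in coding sequence. The remaining reads without MILI were thus spread differently over the transcripts. After NaIO4 in wild type the ratio was 1.47 for 3′ UTR members, 1.26 for coding members and 0.807 for 5′ UTR members, while the longer reads had 1.90, 1.79 and 1.70.

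The short reads were spread over 8120 genes in wild type and 4100 in the Mili knockout, and the 12 genes with the most reads held 13.4% and 30.96% of them. Across the 352 genes with at least 50 member reads in wild type, the Spearman correlation of a gene's short and longer reads was 0.511, and across 3327 genes in the immunoprecipitate it was 0.880. These are descriptions across genes of 1 library, which share its depth and the genes' lengths and expression. The median gene had 7.01% of its 20 to 31 nt reads at 20 to 24 nt in wild type, 11.2% in the Hen1 knockout, 28.3% in the Hen1 knockout after NaIO4 and 8.35% in the immunoprecipitate. The genes differ between libraries, since each needed 50 member reads.

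The 11 genes known from earlier results of these data as large sources of longer reads changed in the same directions as the nuclear members as a whole. They were chosen as sources from these same data, so their values are a description only. D10Wsu102e, whose longest transcript has 123179 nt, had the following numbers of member reads: 2513 in wild type, 4396 after NaIO4, 8762 in the Hen1 knockout, 1870 after NaIO4 there, 67 in the Mili knockout and 18152 in the MILI immunoprecipitate. Its NaIO4 ratio in wild type was 1.25 (95% interval 1.19 to 1.31), and it held the most member reads of any nuclear gene in wild type. Fth1 encodes the ferritin heavy chain, which stores iron, and had these member reads: 407 in wild type, 1015 after NaIO4, 2246 in the Hen1 knockout, 422 after NaIO4 there, 17 in the Mili knockout and 8672 in the MILI immunoprecipitate. Its share in the immunoprecipitate was 6.18 (95% interval 5.60 to 6.83) times that in wild type, the highest of these 11 genes. Abl2, a tyrosine kinase gene, had these: 670 in wild type, 1569 after NaIO4, 3415 in the Hen1 knockout, 527 after NaIO4 there, 8 in the Mili knockout and 6304 in the MILI immunoprecipitate. All 11 genes were above 1 after NaIO4 in wild type, with a median of 1.58 (range 1.25 to 1.84) beside 1.40 over the 352 genes. In the immunoprecipitate their median was 3.34 beside 2.49, and in the Mili knockout 0.0215 beside 0.0379. In the Hen1 knockout all 11 fell below 1 after NaIO4, with a median of 0.748, or 0.514 for members not before TGG. Over all genes with 50 member reads there, 928 of 1269 were below 1, with a median of 0.723, and 1123 of 1204 by members not before TGG, with a median of 0.499. The other genes of this list are Cbx5 (heterochromatin protein), Trim71 and Cbl (ubiquitin ligases), Eif4ebp2 (a translation repressor), Tmem245, Rab11fip4, Gabpb2 and Fbxo41, with NaIO4 ratios in wild type of 1.58, 1.61, 1.57, 1.48, 1.42, 1.72, 1.84 and 1.33.

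Some genes had most of their short reads before TGG, Zfp346, Usp22 and Lin28a among them, while Noct (6.40% in wild type), Scd2 (16.2%) and Lars2 (5.73%) did not. Zfp346 had these member reads: 1236 in wild type, 2670 after NaIO4, 968 in the Hen1 knockout, 510 after NaIO4 there, 2 in the Mili knockout and 3618 in the MILI immunoprecipitate. Of its wild-type member reads 86.7% were before TGG, and its NaIO4 ratio in the Hen1 knockout was 2.37 with them and 0.499 without. For Usp22 these were 87.6%, 2.54 and 0.277. Lin28a, an RNA-binding protein gene of stem cells and the only gene of the stem cell list (19 genes) with at least 50 member reads in wild type, had these: 60 in wild type, 143 after NaIO4, 127 in the Hen1 knockout, 178 after NaIO4 there, 0 in the Mili knockout and 356 in the MILI immunoprecipitate. Its NaIO4 ratio in the Hen1 knockout was 6.30 with and 0.596 without members before TGG, while its 25 to 31 nt reads had 0.257. In Zfp346, Usp22 and Lin28a the rise after NaIO4 in the Hen1 knockout was absent from the members not before TGG.

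Mitochondrial genes made the sensitive set. Of the 13 mitochondrial protein genes, 11 had at least 50 member reads in wild type, and all 11 were at least 2-fold lower after NaIO4, with a median ratio of 0.0931 (range 0.0713 to 0.273). mt-Co1, a subunit of cytochrome c oxidase, had these member reads: 3226 in wild type, 354 after NaIO4, 1820 in the Hen1 knockout, 161 after NaIO4 there, 1913 in the Mili knockout and 316 in the MILI immunoprecipitate. It was the gene with the most member reads in wild type, and 63.3% of those also matched a lncRNA or pseudogene. The gene with the highest ratio of the 11 was mt-Nd6, a subunit of complex I, at 0.271, of whose member reads 30.4% were before TGG. Without those its ratio was 0.0730. In the immunoprecipitate the median of the 11 was 0.0616 and in the Mili knockout 0.963.

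Some reads counted for nuclear genes did not go with the resistant reads. Lars2, the leucyl-tRNA synthetase of mitochondria, had these member reads: 2180 in wild type, 1802 after NaIO4, 2315 in the Hen1 knockout, 1305 after NaIO4 there, 2699 in the Mili knockout and 1364 in the MILI immunoprecipitate. Its NaIO4 ratio was 0.589 (95% interval 0.553 to 0.627) in wild type and 2.53 (95% interval 2.37 to 2.71) in mhen1-/- SSC, its ratio in the immunoprecipitate 0.182 and in the Mili knockout 1.89. Without members before TGG, the NaIO4 ratio of Lars2 in mhen1-/- SSC was 2.51. The rise of Lars2 there was thus not confined to members before TGG, unlike that of Zfp346, Usp22 and Lin28a. Tmem38b, a cation channel gene, had a NaIO4 ratio of 0.162 in wild type, 0.103 in the immunoprecipitate and 2.00 in the Mili knockout. Both genes were lower in the immunoprecipitate and higher in the Mili knockout. Of the Lars2 reads 43.5% also matched a lncRNA or pseudogene, so their source is uncertain. That of the Tmem38b reads is uncertain too, given the likeness of the Tmem38b 20-mer to 5S ribosomal RNA.

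Of the lists, the ribosomal protein genes had the most genes with 50 member reads. Of 104 genes, 29 had at least 50 member reads in wild type, and after NaIO4 there 23 were above 1 and 6 below, with a median of 1.21, beside 284 of all 352 genes above 1 and their median of 1.40. Of the 29 ribosomal protein genes, 1 was at least 2-fold higher and 0 were at least 2-fold lower. Over all 352 genes, 29 were higher and 20 lower by this rule, and 11 of those 20 were mitochondrial. Among the ribosomal protein genes Rpl31 had the highest ratio, 2.42 (95% interval 1.90 to 3.08), and Rpl13 the lowest, 0.625 (95% interval 0.462 to 0.846). In the immunoprecipitate 28 of the 29 were above 1, with a median of 2.94, beside 311 of 352 and 2.49 over all genes. Of the 29 ribosomal protein genes, Rps20 had the highest value, 8.51 (95% interval 7.01 to 10.3). Rpl13 was the 1 gene below 1, at 0.393 (95% interval 0.299 to 0.516). Most of these genes have processed pseudogenes: 98.9% of the Rpl22 member reads also matched a lncRNA or pseudogene, so their source is uncertain. Rpl22 rose 6.01-fold after NaIO4 in the Hen1 knockout and had 0.374 without members before TGG, which were 96.8% of its reads in wild type.

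The remaining lists had few short reads. The 19 stem cell genes summed to 237, 457, 682, 286, 59 and 2193 member reads in the 6 libraries, the 20 genes of the piRNA pathway to 98, 164, 297, 85, 21 and 1024, and the 11 fibroblast genes, which mark the feeder cells, to 134, 38, 119, 25, 167 and 77. In rpm the fibroblast sum was 34.7 in the Mili knockout, 18.3 in wild type, 3.70 in NaIO4-treated wild type, 10.2 in mhen1-/- SSC, 9.60 after NaIO4 there and 3.05 in the immunoprecipitate, with between 5 and 8 of the 11 genes having a member. The fibroblast sum was thus higher in the Mili knockout than in wild type, and its part in the results was not tested. Of the stem cell genes 16 of 19 had a member in wild type, beside 7 of the 11 fibroblast genes and 8120 of all 21951 protein-coding genes. No gene of the fibroblast list, the piRNA pathway list or the histone list (101 genes) reached 50 member reads in wild type. Among 10 abundant mRNAs only Hspa8, a chaperone gene, did, with a NaIO4 ratio of 0.912 (95% interval 0.708 to 1.17).

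Over all genes, ratios above 1 after NaIO4 in wild type were common but mostly below 2-fold. Shares are relative, so the loss of microRNAs alone raises the ratio of the other reads. Of the 352 genes, 284 were above 1 after NaIO4, 29 had risen at least 2-fold and 20 had fallen by as much. By their 25 to 31 nt reads, 28.5% of 4516 genes were at least 2-fold higher. In the Hen1 knockout 297 of 1269 genes were at least 2-fold lower by their short reads and 60 at least 2-fold higher, with a median of 0.723. For members not before TGG, 606 of 1204 genes were at least 2-fold lower and 4 at least 2-fold higher, with a median of 0.499. By 25 to 31 nt reads 88.5% of 6378 genes were at least 2-fold lower, and the medians were 1.80 in wild type and 0.283 without HEN1. The medians of the short reads lay nearer to 1 in both genotypes.

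Single sequences can be followed only where they are abundant. In wild type 790 members had at least 10 reads untreated, and sequences chosen for being seen in the untreated library lean towards lower values in any other. After NaIO4, 63 of the 790 had risen at least 2-fold and 357 had fallen by as much. Over all sequences of 18 to 35 nt with 10 reads, 10.6% were higher and 45.3% lower, so the members (7.97% and 45.2%) were near the background. Before TGG, 49 of 374 were higher and 73 lower, and of the other 416 members 14 were higher and 284 lower. Of 123 mitochondrial members 122 were lower.

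In the Hen1 knockout, 131 of 2241 members were at least 2-fold higher after NaIO4 and 1637 lower (5.85% and 73.05%), beside a background of 4.63% and 75.1%. Of the 142 before TGG 83 were higher, and of the other 2099 48. In the immunoprecipitate 57 of the 790 wild-type members were higher and 441 lower, beside 12.8% and 55.9% over all sequences. In the Mili knockout 628 of the 790 were lower (79.5%), beside 65.1%. Apart from the Mili knockout, where more members than background sequences were lower, the shares of all members lay within a few percentage points of the background or below it. The sets by the letters after the 3′ end did not: before TGG 58.5% were higher in the Hen1 knockout, and not before TGG 68.3% were lower in wild type. The 790 wild-type members include 123 of mitochondrial genes, of which 122 were lower, and their part in the 68.3% was not tested. Of the 667 members of nuclear genes, 35.2% were lower in wild type.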

How the data were processed

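Small RNA libraries were sequenced from 6 samples of mouse SSC, 1 per group. The authors deposited, for each library, a table of distinct sequences with whole-number read counts. Bowtie and mm10 are named in the submitters' processing notes, while their use, the adapter and its trimming are not stated in the labels or headers. The spike-ins were not used here. Samples were grouped by genotype and treatment in the labels.

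Sequences were matched exactly, with Python 3.11.15, numpy 2.4.6, pandas 2.3.3 and numba 0.67.0, to GENCODE M21 transcripts (GRCm38): 6109 small RNA transcripts, then 101652 transcripts of 21951 protein-coding genes. Exact binomial intervals used scipy 1.17.1, and ratios of shares have 95% intervals from the counts on the log scale. For counts of sequences and genes past a fold, and for medians over genes, 0.5 was added to each count. Thresholds were 10 reads for a sequence, 50 for a gene, and 2-fold. The upper limit given for a count of 0 is 3 reads. The scripts were tested on simulated data.

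Named genes were the 12 with the most member reads in wild type, the 8 in the immunoprecipitate and the 6 in the Mili knockout, plus listed genes with 50 member reads in wild type. Named sequences were the 8, 8 and 4 with the most reads in the same libraries. The text prints some that carry the patterns, and these do not stand for all members. The members and lists were chosen with earlier results of these data known, and the division by TGG after seeing the data. Alternatives changed the total, the matching, the definition of a shared 5′ end, the thresholds and this division.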

Additional observations from a re-analysis of the deposited data

Results flagged for a closer look

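The share of members moved up with NaIO4 in wild type and down in the Hen1 knockout, in 1 library each. The NaIO4 ratio of all members was 1.26 in wild type and 0.895 without HEN1, the second being 0.708 times the first. For members of nuclear genes it was 1.35 in wild type and 0.900 without HEN1, the second being 0.668 times the first. At 23 nt it was 1.22 in wild type and 0.709 without HEN1, the second being 0.582 times the first, and at 24 nt 1.39 in wild type and 0.379 without HEN1, the second being 0.273 times the first. The gene-derived reads of 25 to 31 nt differed more, at 1.84 in wild type and 0.289 without HEN1, the second being 0.157 times the first. At 20, 21 and 22 nt the ratios were above 1 in both genotypes. These differences were not tested, since each ratio comes from 1 library with and 1 without NaIO4. Members before TGG made up 6.10% of member reads in the untreated Hen1 knockout and 42.8% after NaIO4, and with them left out the ratios of all members were 1.21 in wild type and 0.545 without HEN1, the second being 0.450 times the first.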

How the results depend on the processing

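Of 188 recomputed values, 37 lay within counting error or, for counts of sequences, within 1.5 times, 142 moved beyond that in the same direction and 9 changed direction. The cause of these changes was not tested. Values follow in 1 order: the share of members in untreated wild type, the NaIO4 ratio with HEN1 and without it, the second of these over the first, then the immunoprecipitate, Mili knockout and Hen1 knockout ratios. With all reads as the total they were 1.41%, 1.31, 0.863, 0.661, 2.55, 0.336 and 2.08. Without the 10 most abundant sequences they were 1.48%, 1.26, 0.877, 0.695, 2.50, 0.339 and 2.06. With members matching a lncRNA or pseudogene left out they were 1.28%, 1.35, 0.895, 0.663, 2.59, 0.311 and 2.13, without mitochondrial genes 1.42%, 1.35, 0.900, 0.668, 2.63, 0.301 and 2.13, with protein_coding transcripts only 1.59%, 1.27, 0.933, 0.735, 2.37, 0.311 and 1.94, and with members within 1 mismatch of a small RNA left out 1.49%, 1.28, 0.897, 0.703, 2.49, 0.346 and 2.04. With members before TGG left out, an alternative chosen after seeing the data, they were 1.12%, 1.21, 0.545, 0.450, 2.95, 0.408 and 2.58. Per 100 microRNA reads the share became 7.91, and the ratios per microRNA read 15.8, 2.31, 0.146, 55.97, 0.194 and 5.24, so that the Hen1 knockout rose after NaIO4. With each distinct sequence counted once they were 3.57%, 0.951, 1.42, 1.497, 1.82, 1.00 and 1.62, and there both NaIO4 ratios, their ratio and the Mili knockout ratio changed direction.

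The share of wild-type member reads with a MILI-bound 5′ end was 25.3% without the 10 most abundant sequences, 21.9% over distinct sequences, 24.6% and 28.2% without lncRNA or pseudogene matches and mitochondrial genes, 28.4% with protein_coding transcripts only, and 26.1% when the whole member had to be the start of the longer read. Requiring 1 read in the immunoprecipitate gave 62.3%, requiring 50 gave 11.6%, and longer reads of the same library gave 44.2%. NaIO4 ratios with a shared 5′ end in wild type and mhen1-/- SSC, then without one in both, were 1.43, 0.853, 0.999 and 1.000 with 1 read, 1.41, 0.724, 1.25 and 0.925 with 50 reads and 1.58, 0.363, 1.01 and 1.73 with the same library. They were 1.497, 0.756, 1.24 and 0.918 with all reads as the total, 18.1, 2.02, 14.98 and 2.46 per microRNA read and 1.48, 0.556, 1.12 and 0.539 with members before TGG left out. The unshared members thus changed direction in wild type with 1 read and in the Hen1 knockout with the same library, and both kinds did in the Hen1 knockout per microRNA read.

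Of single members, 5 were at least 2-fold higher and 11 lower after NaIO4 in wild type when 50 reads were required, 6 and 81 in the Hen1 knockout, 9 and 25 in the immunoprecipitate, and 47 lower in the Mili knockout. At 4-fold, 0, 75 and 9 were higher after NaIO4 in wild type, in the Hen1 knockout and in the immunoprecipitate, 262, 1408 and 311 were lower, and 591 were lower in the Mili knockout. Per microRNA read the counts higher and lower were 577 and 149, 409 and 880, and 563 and 147. With members before TGG left out, 14 of 416, 48 of 2099 and 28 of 416 were higher, and 262 of 416 were lower in the Mili knockout.

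No paired analysis was possible because each group had 1 library and no result came from a test. Depth limits single members most: in the shallowest library 3 reads are 1.15 rpm, against 0.119 rpm in the immunoprecipitate. Periodate, genotype, picked colony and library preparation each differ with the library and cannot be told apart.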

Other observations

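Members with at least 10 reads in both untreated total RNA libraries, wild type and Hen1 knockout, could be followed through both NaIO4 treatments. There were 260 of them, of which 21 were at least 2-fold higher after NaIO4 in wild type, 77 in the Hen1 knockout and 13 in both. Without HEN1, 121 were at least 2-fold lower, and the median ratio there was 0.590. Over all sequences with 10 untreated reads, 10.6% were higher in wild type, and 4.63% were higher and 75.1% lower in the Hen1 knockout. This background needed 10 reads in 1 untreated library only, so it is not matched to the 260. By that filter, 131 of 2241 members (5.85%) were higher in the Hen1 knockout. The 260 are not divided here by the letters after their 3′ end. By length, 26 of the 40 members of 21 nt were higher in the Hen1 knockout, against 4 of the 76 of 24 nt, and 9 and 49 of them were lower.

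Base 10 of members with a shared 5′ end was A in 28.7% of reads in wild type, 27.3% in the Hen1 knockout and 28.8% in the immunoprecipitate. An A at this base is known for piRNAs made by ping-pong cleavage. By the rule for a shared 5′ end, base 10 is also that of a MILI-bound longer read.

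Short reads that matched 2 or more protein-coding genes were not members. They were 0.560% of wild-type reads, with a NaIO4 ratio of 0.891 in wild type and 0.947 without HEN1, an immunoprecipitate ratio of 1.21 and a Mili knockout ratio of 0.222. Reads of 20 to 24 nt with no match to a protein-coding gene or small RNA had NaIO4 ratios of 0.911 and 3.15.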
